A study of Arabidopsis thaliana with 22 samples.

Results

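RALF1 (AT1G02900), RALF22 (AT3G05490), RALF23 (AT3G16570), RALF33 (AT4G15800), RALF34 (AT5G67070), RALF32 (AT4G14010) and RALF4 (AT1G28270) encode rapid alkalinization factors, small peptides that plant cells secrete into the cell wall. These 7 genes were chosen by identifier from the 33602 genes of the count table, and 6 of them were among the 21831 genes that passed the filter on low counts. RNA was sequenced from whole seedlings of Arabidopsis thaliana. The lrx345 mutant, a line with mutations in LRX3, LRX4 and LRX5, was sampled at 0, 6, 24 and 72 h of NaCl treatment, as was the Col-0 wild type (WT), and each genotype has 2 libraries of 0 h and 3 of every other time. Seedlings were 10 days old. The methods name 150 mM NaCl for 6 h and no concentration for the later times, and they do not say which alleles the mutant carries. No seedlings kept without NaCl were sampled after 0 h, so that NaCl, age and hour of the day cannot be told apart in the changes from 0 h. The methods call the replicates biological, the labels do not say whether they came from separate cultures, and the p-values measure the spread between these libraries.

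RALF peptides are cut from longer precursors, in several members by the protease S1P at a site of 2 arginines, any residue and a leucine. The mature peptide raises the pH of the cell wall space. It binds receptor kinases of the family of FERONIA (FER), together with small membrane-anchored co-receptors of the LORELEI family (LRE and the LLG proteins), and it also binds leucine-rich repeat extensins (LRX), which sit in the cell wall. RALF1 is known for slowing root growth through FER, RALF23 for damping immune signalling through FER and LLG1, RALF34 as a ligand of THESEUS1 (THE1) in root branching, and RALF4 for the integrity of the growing pollen tube. RALF22 and RALF23 are known to bind LRX3, LRX4 and LRX5.

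The coding stretch up to the first cysteine is shown for the 6 genes tested because it holds what the peptides share and where they part. The stretch starts at the cleavage site, except in RALF32, which has none. It is given 5′ to 3′ on the coding strand, read from the RefSeq genome of TAIR10.1, and ends with the codon of the first cysteine of the mature peptide. Capitals mark the codons of the cleavage site and those of the 4 residues YISY, a motif known to matter for binding to the receptor.
RALF1: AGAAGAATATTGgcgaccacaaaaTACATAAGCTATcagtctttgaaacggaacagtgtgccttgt
RALF22: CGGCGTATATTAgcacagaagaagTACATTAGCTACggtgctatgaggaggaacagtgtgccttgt
RALF23: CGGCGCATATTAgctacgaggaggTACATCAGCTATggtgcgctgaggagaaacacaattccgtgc
RALF33: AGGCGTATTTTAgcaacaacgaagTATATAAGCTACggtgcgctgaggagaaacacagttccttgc
RALF34: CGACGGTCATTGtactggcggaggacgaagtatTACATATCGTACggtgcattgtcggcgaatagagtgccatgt
RALF32: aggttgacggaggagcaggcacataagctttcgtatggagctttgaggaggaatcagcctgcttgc
In RALF32 the stretch has no capitals, since the protein has neither the cleavage site nor YISY, and RALF4 has the site without YISY. The stretch of RALF32 starts as many codons before the YISY position as that of RALF22. The stretches lie at chr1:654072-654137 on the minus strand for RALF1, chr3:1591579-1591644 on the plus strand for RALF22, chr3:5645000-5645065 on the plus strand for RALF23, chr4:8985104-8985169 on the plus strand for RALF33, chr5:26768327-26768401 on the plus strand for RALF34 and chr4:8093118-8093183 on the minus strand for RALF32. All lie in the coding part of an exon. A table of RefSeq proteins was not used here, and no protein sequence is shown.

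The 7 precursors are between 110 and 138 residues long, and each has 4 cysteines after the position of YISY. From the end of the site onwards, RALF23 and RALF33 shared 92% of aligned residues, RALF22 and RALF33 87.8%, and RALF1 and RALF33 81.6%. RALF34 was farther, with 57.9% shared with RALF23 and 58.9% with RALF33. RALF32, read here from 4 residues before the YISY position because it has no site, shared between 32.7% and 47.2% with the other members. RALF23 and RALF33 are thus the most alike pair. Each of the 7 genes has 1 exon in the count table (TAIR10), at 653765 to 654343 of chromosome 1 for RALF1, 1591277 to 1591983 of chromosome 3 for RALF22, 5644698 to 5645414 of chromosome 3 for RALF23, 8984858 to 8985405 of chromosome 4 for RALF33, 26768020 to 26768846 of chromosome 5 for RALF34, 8092833 to 8093382 of chromosome 4 for RALF32 and 9883038 to 9883870 of chromosome 1 for RALF4. No other gene of the table overlaps any of these exons, and fragments that map to more than 1 place were left out of the counts.

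The libraries held between 7413461 and 15047080 counted fragments. Levels are given as FPKM, fragments counted per unit of exon length and of sequencing depth, computed from the counts with TMM-scaled library totals, so that they can be compared between genes. LRX3 checks the genotype labels: it was lower in lrx345 seedlings at every time, by 3.89-fold at 0 h, 2.09-fold at 6 h, 2.57-fold at 24 h and 3.65-fold at 72 h. Its transcript stayed measurable in the mutant, with 10.5 ± 0.969 FPKM in lrx345 seedlings and 41.1 ± 5.26 FPKM in WT seedlings at 0 h (SD, n = 2 each). The annotation used here does not name LRX4 and LRX5. Genotyping primers that the study lists for the T-DNA lines SALK_094400, GABI_017A08 and SALK_013968 match the genome at LRX3, AT3G24480 and AT4G18670. The transcript of AT3G24480 was little reduced at 0 h, with 60.4 ± 0.754 FPKM in lrx345 seedlings and 88.5 ± 11.2 FPKM in WT seedlings (SD, n = 2 each), and it was 1.46-fold, 1.56-fold, 2.51-fold and 1.72-fold lower in lrx345 at 0, 6, 24 and 72 h. That of AT4G18670 had 6.51 ± 0.579 FPKM in lrx345 seedlings and 38.2 ± 3.02 FPKM in WT seedlings at 0 h, and it was 5.88-fold, 7.30-fold, 5.30-fold and 7.26-fold lower in lrx345 at these times.

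Markers of other tissues moved with genotype and time. All 4 root markers tested (EXPA7, COBL9 and PRP3 of root hairs, CASP1 of the endodermis) were lower in lrx345 seedlings at 6, 24 and 72 h and none at 0 h. Their summed level ran from 3.2 to 7.11 FPKM in lrx345 libraries and from 57.3 to 63.4 FPKM in WT libraries at 6 h, from 4.75 to 10.6 FPKM in lrx345 and from 145.7 to 171.7 FPKM in WT at 24 h, and from 66.1 to 85.8 FPKM in lrx345 and from 274.2 to 335.7 FPKM in WT at 72 h. At 0 h the 2 lrx345 libraries had 132.4 and 72.4 FPKM, and those of WT 114 and 115.7 FPKM. No root marker was at 0 counts over the libraries of any group. All 5 leaf markers were lower in lrx345 seedlings at 24 h and at 72 h, when their sum ran from 10274 to 12503 FPKM in lrx345 and from 24216 to 27923 FPKM in WT. At 0 h and at 6 h, 2 of the 5 were lower and none higher. The 4 pollen markers summed to at most 6 counts in any library, and all 4 were at 0 counts in WT at 0, 6 and 24 h. In RNA of whole seedlings, fewer cells of a type and less RNA per cell cannot be told apart. The part of these tissues in the results on the RALF genes was not tested.

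RALF transcripts differed in level and in pattern. RALF34, RALF23 and RALF22 were the most abundant members at 0 h in WT, with 63.4 ± 0.942, 64.3 ± 0.103 and 49.5 ± 0.707 FPKM (SD, n = 2), and RALF32 the least of the 6, with 13.4 ± 1.12 FPKM. RALF4 had 1 count in all 22 libraries together, in replicate 1 of WT at 6 h, and 0 in every other library, a count that allows up to 3 in each of those libraries. It was not tested, and no fold change is given for it. Summed over the 7 genes, RALF transcripts had 209.1 ± 8.59, 192.7 ± 33.5, 155.8 ± 2.51 and 141.2 ± 7.31 FPKM in lrx345 seedlings at 0, 6, 24 and 72 h, and 250.3 ± 1.27, 222.1 ± 5.07, 208.5 ± 3.26 and 215.2 ± 18.5 FPKM in WT seedlings (SD, n = 2 at 0 h and 3 later). The sums of the genotypes overlapped at 6 h and at no other time. The mix changed too: RALF1 made up 20.2% of the sum in lrx345 seedlings at 0 h and 3.98% at 24 h, and 14.2% and 6.31% in WT seedlings at the same times.

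**Figure D1:**
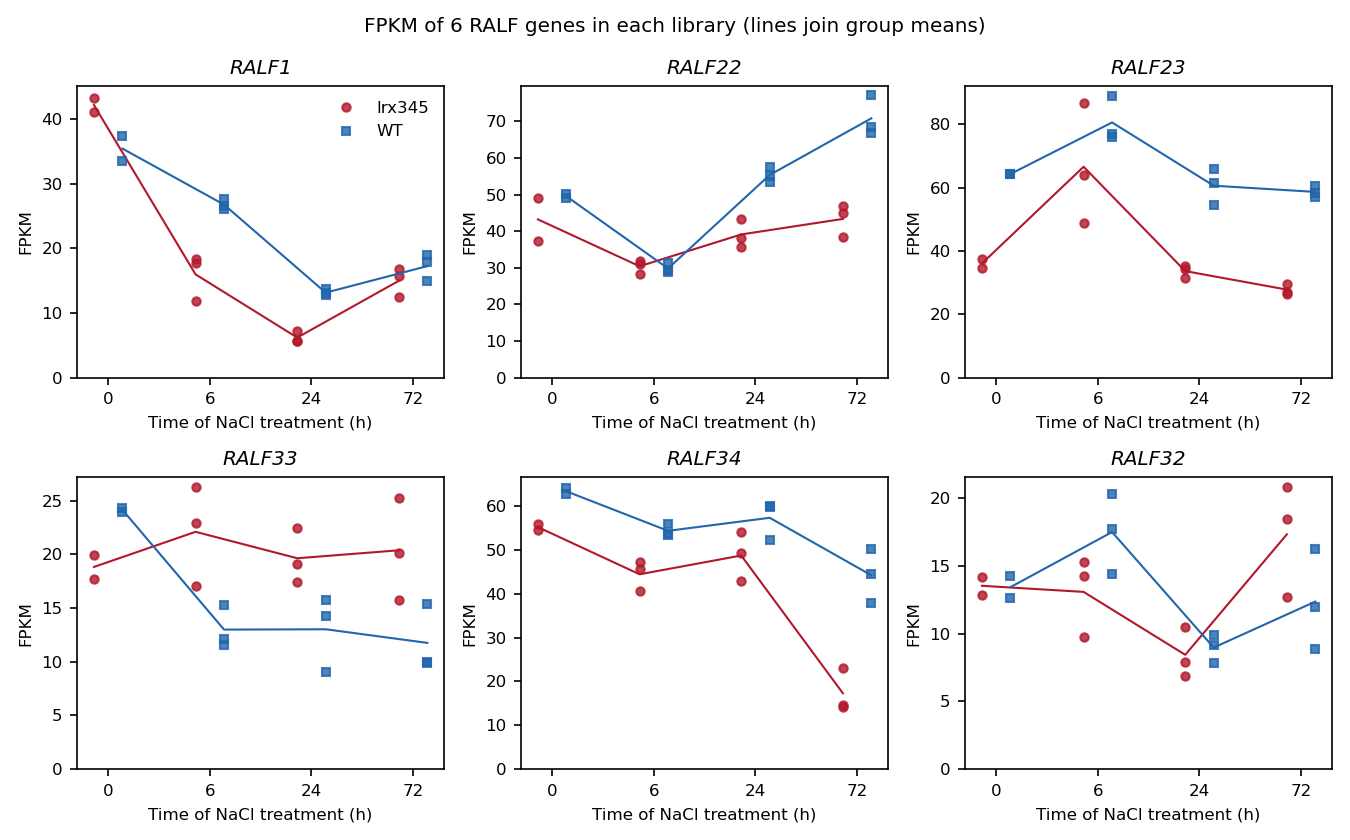
FPKM of the 6 RALF genes tested, by time of NaCl treatment on an axis of categories (0, 6, 24 and 72 h), with 1 point per library (lrx345 circles left, WT squares right) and lines through the group means. RALF1 falls to its lowest level at 24 h in both genotypes, RALF23 lies lower in lrx345 than in WT at 0, 24 and 72 h with no overlap, and RALF33 lies higher in lrx345 than in WT at 6, 24 and 72 h.

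Comparing lrx345 with WT at each time asks whether genes of the RALF ligands differ in level where LRX3, LRX4 and LRX5 are mutated. At 0 h, 1 of the 6 RALF genes tested differed (RALF23, lower), where 18% of all genes tested were called at an adjusted p under 0.05. At 6 h, RALF1 was lower and RALF33 higher, 2 of 6 genes, against a background of 36%. At 24 h, RALF1, RALF22 and RALF23 were lower and RALF33 higher, 4 of 6 genes, against 52.7%. At 72 h, RALF22, RALF23 and RALF34 were lower and RALF33 and RALF32 higher, 5 of 6 genes, against 62.1%. Both the count and the background share were higher at each later time, and the median log2 difference of the 6 genes was −0.19, −0.28, −0.37 and −0.46 at 0, 6, 24 and 72 h, beside −0.04, −0.05, −0.08 and −0.01 over all genes tested. With a fold change above 2 asked for in addition, 0, 0, 1 and 2 genes were called at 0, 6, 24 and 72 h. The share of all genes tested that met both conditions was not computed, so these counts have no background beside them. All libraries of lrx345 lay on one side of those of WT for 4, 3, 4 and 4 of the 6 genes at these times, where 60.3%, 48.8%, 55.7% and 66.5% of all genes tested did so.

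**Figure D2:**
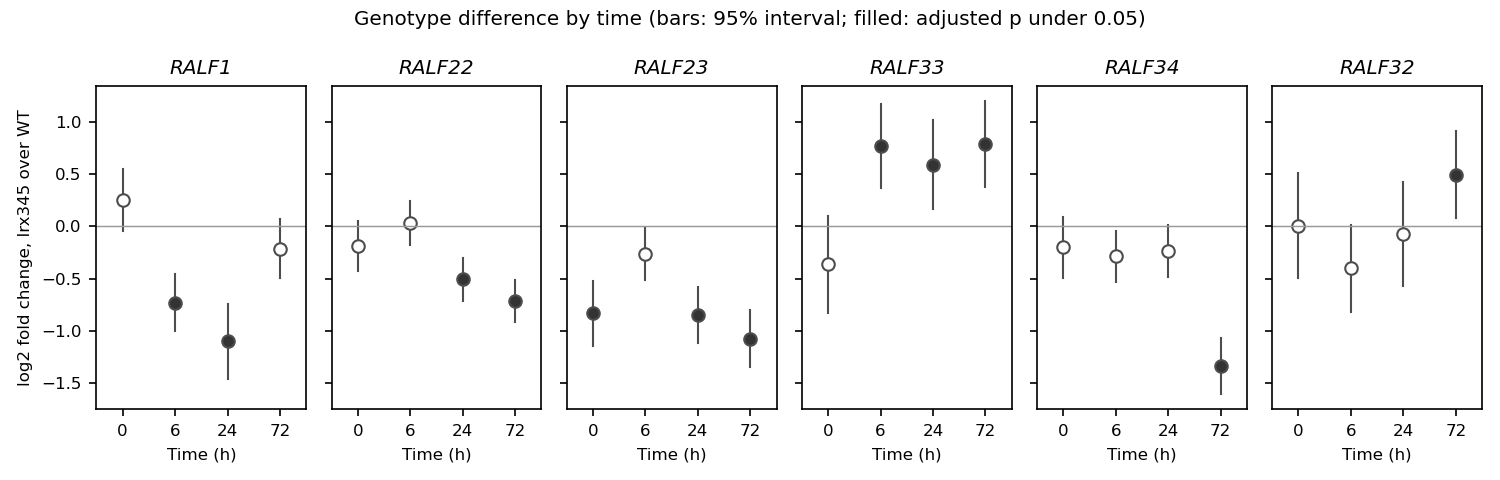
log2 fold change of lrx345 over WT for 6 RALF genes at 0, 6, 24 and 72 h, with 95% intervals from the approximate standard error. Filled points passed an adjusted p of 0.05; RALF33 is the gene with filled points above 0 at 6, 24 and 72 h, and the lowest point is RALF34 at 72 h, at −1.34.

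RALF1 fell in both genotypes, to its lowest level at 24 h, and was lower in the mutant than in WT at 6 and 24 h. In lrx345 seedlings it had 43.3 and 41.2 FPKM at 0 h, 11.9, 17.7 and 18.3 at 6 h, 5.59, 5.73 and 7.26 at 24 h, and 16.8, 15.7 and 12.5 at 72 h. In WT seedlings it had 33.5 and 37.5 FPKM at 0 h, 26.6, 26.1 and 27.7 at 6 h, 13.1, 12.7 and 13.7 at 24 h, and 19, 14.9 and 17.8 at 72 h. All mutant libraries lay below all WT libraries at 6 and 24 h, and the genotypes overlapped at 72 h. The level was 1.66-fold lower in lrx345 than in WT at 6 h (log2 −0.73 ± 0.14 (SE), adjusted p = 2.25e-04, by the quasi-likelihood test of edgeR and the method of Benjamini and Hochberg) and 2.14-fold lower at 24 h (log2 −1.10 ± 0.18, adjusted p = 2.64e-05). At 0 h both lrx345 libraries were above both WT libraries, with a difference that did not pass the test (log2 0.25, 95% interval −0.04 to 0.55, adjusted p = 0.295), and at 72 h the interval was −0.50 to 0.07.

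Measured against 0 h, RALF1 was 6.86-fold lower at 24 h in lrx345 seedlings (log2 −2.78 ± 0.17, adjusted p = 1.13e-11) and 2.69-fold lower in WT seedlings (log2 −1.43 ± 0.15, adjusted p = 1.71e-07). This was the widest range of any member: its highest group mean, at 0 h in lrx345, was 6.81 times its lowest, at 24 h in lrx345. At 72 h it was higher again than at 24 h, by 2.43-fold in lrx345 seedlings (adjusted p = 3.3e-06) and by 1.31-fold in WT seedlings (adjusted p = 0.0349). That call in WT was lost without replicate 1, 2 or 3 of WT at 24 h (adjusted p = 0.0741, 0.0863 and 0.0588) and without replicate 1 or 3 of WT at 72 h (0.146 and 0.0809), and also in a fit of only the groups compared (0.0535). In WT seedlings at 6 h against 0 h the gene was 1.32-fold lower (adjusted p = 0.0252), a call that was lost without the WT library of 0 h that has no number (log2 −0.32, adjusted p = 0.205) and without replicate 1 or 2 of WT at 6 h (0.0731 and 0.0642). Of the 8 groups ordered by mean level, 4 of the 7 neighbouring pairs did not overlap, and WT at 72 h, lrx345 at 6 h, lrx345 at 72 h and WT at 24 h formed a run of overlapping neighbours.

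RALF23 was the only member called lower in the mutant before any NaCl, although the lrx345 libraries of RALF33 and RALF34 also lay below those of WT. At 0 h RALF23 had 37.5 and 34.7 FPKM in lrx345 libraries, against 64.3 and 64.4 FPKM in WT libraries. At 24 h it had 31.6, 34.2 and 35.2 FPKM in lrx345 and 61.4, 65.9 and 54.6 FPKM in WT, and at 72 h 26.6, 29.7 and 27.2 FPKM in lrx345 and 58.5, 60.5 and 57.1 FPKM in WT. The genotypes did not overlap at these 3 times, with a level in lrx345 that was 1.78-fold lower at 0 h (log2 −0.83 ± 0.16, adjusted p = 5.24e-04), 1.80-fold lower at 24 h (log2 −0.85 ± 0.14, adjusted p = 2.05e-05) and lower too at 72 h (log2 −1.07 ± 0.14, adjusted p = 4.5e-07).

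At 6 h the lrx345 libraries of RALF23 were spread widely, at 48.8, 64.2 and 86.9 FPKM for replicates 1, 2 and 3, against 75.9, 77 and 89 FPKM in WT. The genotypes overlapped, and the difference did not pass the test (log2 −0.27, 95% interval −0.52 to −0.02, adjusted p = 0.103); without replicate 3 of lrx345 it was −0.50 with an adjusted p of 9.95e-04. Against 0 h the gene was 1.85-fold higher at 6 h in lrx345 seedlings (log2 0.89 ± 0.15, adjusted p = 3.49e-05), while WT had a log2 change of 0.32 ± 0.14 that did not pass the test (adjusted p = 0.0714, 0.0377 with no filter on low counts, 0.00472 in a fit of only the groups compared, and 0.0128 and 0.0178 without replicate 1 or 3 of lrx345 at 6 h). Between 6 h and 24 h it fell by 0.99 on the log2 scale in lrx345 seedlings (adjusted p = 3.85e-06) and by 0.41 in WT seedlings (adjusted p = 0.0127; 0.068 without replicate 3 of WT at 6 h and 0.0736 without replicate 3 of WT at 24 h). At 72 h against 0 h it was lower in lrx345 seedlings (log2 −0.37, adjusted p = 0.0376), a call that was lost without either lrx345 library of 0 h (adjusted p = 0.181 without replicate 1 and 0.0547 without replicate 2) and without replicate 1 or 3 of lrx345 at 72 h (0.0793 and 0.0862).

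RALF33, closest to RALF23 in its peptide, was higher in lrx345 than in WT at 6, 24 and 72 h. At 0 h it had 17.7 and 19.9 FPKM in lrx345 libraries, against 24.4 and 24 FPKM in WT libraries. At 6 h it had 17.1, 22.9 and 26.3 FPKM in lrx345 and 15.3, 12.1 and 11.6 FPKM in WT; at 24 h 19.1, 22.5 and 17.4 FPKM in lrx345 and 14.3, 9.08 and 15.7 FPKM in WT; and at 72 h 15.8, 20.2 and 25.2 FPKM in lrx345 and 15.3, 10 and 9.92 FPKM in WT. Every mutant library was thus above every WT library at the 3 later times, by a narrow margin at 72 h, and below at 0 h. The level in lrx345 was 1.70-fold that in WT at 6 h (log2 0.77 ± 0.21, adjusted p = 0.00532), and 1.73-fold at 72 h (log2 0.79 ± 0.21, adjusted p = 0.00233), with a log2 difference of 0.59 ± 0.22 at 24 h (adjusted p = 0.0267). At 0 h the log2 difference was −0.36 (95% interval −0.83 to 0.10, adjusted p = 0.342).

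Against 0 h, RALF33 in WT seedlings was 1.85-fold lower at 6 h (adjusted p = 0.00253), 1.84-fold lower at 24 h (adjusted p = 0.00425) and 2.03-fold lower at 72 h (adjusted p = 5.44e-04). In lrx345 seedlings its log2 change was 0.25, 0.07 and 0.13 at 6, 24 and 72 h, and none of these passed the test. The call between genotypes at 24 h was lost without replicate 2 of WT (log2 0.39, adjusted p = 0.141), without replicate 2 of lrx345 (log2 0.48, adjusted p = 0.121) and with upper-quartile scaling (log2 0.50, adjusted p = 0.0555). With 52 to 187 counts per library, RALF33 was measured less precisely than RALF23, which had 161 to 781.

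RALF34 stood apart at 72 h. Its level was 54.6 and 55.8 FPKM in lrx345 libraries and 64.1 and 62.7 FPKM in WT libraries at 0 h. At 6 h it was 40.6, 47.2 and 45.6 FPKM in lrx345 and 55.9, 53.4 and 53.8 FPKM in WT, and at 24 h 54, 49.3 and 42.9 FPKM in lrx345 and 60, 52.3 and 59.7 FPKM in WT. At 72 h it was 14.7, 23 and 14.2 FPKM in lrx345, against 50.2, 37.9 and 44.6 FPKM in WT, with no overlap. This 2.53-fold lower level in lrx345 (log2 −1.34 ± 0.14, adjusted p = 1.58e-08) was the largest genotype difference of any member at any time. The differences at 0, 6 and 24 h were between −0.20 and −0.29 on the log2 scale and did not pass the test, although every lrx345 library lay below every WT library at 0 and 6 h. At 6 h the adjusted p was 0.0774, and it was 0.0248 without replicate 2 of lrx345 at 72 h and 0.041 in a fit of only the groups compared. At 24 h it was 0.126, and 0.0365 with upper-quartile scaling.

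Between 24 h and 72 h RALF34 fell by 1.48 on the log2 scale in lrx345 seedlings (adjusted p = 8.38e-09) and by 0.37 in WT seedlings (adjusted p = 0.0195; 0.103 without replicate 2 of WT at 72 h, and 0.0606 and 0.0669 without replicate 1 or 3 of WT at 24 h). Against 0 h it was 3.15-fold lower at 72 h in lrx345 seedlings (adjusted p = 1.06e-09) and 1.43-fold lower in WT seedlings (adjusted p = 0.00311). The summed level of the leaf markers was also lowest in lrx345 seedlings at 72 h, with a mean of 11753.3 FPKM against 14980.5 FPKM at 0 h. Of the 5 leaf markers, 3 were lower and 1 higher in lrx345 at 72 h than at 0 h. The part of these markers in the result on RALF34 was not tested.

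RALF22 was lower in the mutant at 24 and 72 h, and in WT it was at its lowest at 6 h and its highest at 72 h. In lrx345 libraries it had 49.2 and 37.3 FPKM at 0 h, 28.2, 31.9 and 31.1 at 6 h, 38.2, 35.7 and 43.4 at 24 h, and 46.8, 38.4 and 44.9 at 72 h. In WT libraries it had 49 and 50 FPKM at 0 h, 29.4, 28.9 and 31.2 at 6 h, 53.3, 57.7 and 55.1 at 24 h, and 77.2, 68.4 and 66.9 at 72 h. The genotypes overlapped at 0 and 6 h and did not at 24 and 72 h, when the level in lrx345 was 1.42-fold lower (log2 −0.51 ± 0.11, adjusted p = 3.26e-04) and 1.64-fold lower (log2 −0.71 ± 0.10, adjusted p = 1.82e-06). Both genotypes were lower at 6 h than at 0 h, by 1.42-fold in lrx345 (adjusted p = 8.9e-04) and 1.66-fold in WT (adjusted p = 1.69e-05). In lrx345 seedlings the gene was then 1.28-fold higher at 24 h than at 6 h (adjusted p = 0.0121; 0.0746 without replicate 3 of lrx345 at 24 h), and at 72 h it had a log2 change of −0.01 from 0 h (95% interval −0.23 to 0.22). In WT seedlings it was 1.86-fold higher at 24 h than at 6 h (adjusted p = 2.98e-07), and at 72 h it was 1.43-fold higher than at 0 h (adjusted p = 4.91e-04).

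The 2 lrx345 libraries of 0 h bear on these values. Replicate 1 had more RALF22 than replicate 2, and also more of the root markers (132.4 against 72.4 FPKM summed, of which PRP3 made up 82.7 and 31.5). Without replicate 1 the log2 change of RALF22 in lrx345 at 6 h was −0.29 with an adjusted p of 0.105. The summed root markers of WT also had their lowest range at 6 h and their highest at 72 h, and were lower in lrx345 than in WT at 24 and 72 h, as RALF22 was. This sum follows PRP3, with WT means of 64.3, 17.9, 119.3 and 216.2 FPKM at 0, 6, 24 and 72 h. Only 2 of the 4 markers were called lower in WT at 6 h than at 0 h. In WT, EXPA7 had 7.91 FPKM at 0 h and 8.75 FPKM at 6 h, and CASP1 had 30.0 FPKM at 6 h and 23.8 FPKM at 24 h. At 6 h the root markers were lower in lrx345, while RALF22 did not pass the test (log2 0.03, 95% interval −0.18 to 0.25). Over the 22 libraries, PRP3 ranked 3 among 16833 genes by Spearman correlation with RALF22 (rho = 0.90, Pearson r = 0.83). None of the other root markers was among the 3 highest by either measure. The part of the root markers in the result on RALF22 was not tested.

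RALF32, which lacks the cleavage site, was the least abundant of the 6 at 0 h and had 27 to 141 counts per library. It had 12.9 and 14.2 FPKM in lrx345 libraries and 14.2 and 12.6 FPKM in WT libraries at 0 h, and 9.73, 15.3 and 14.2 FPKM in lrx345 and 17.7, 20.3 and 14.4 FPKM in WT at 6 h. The genotypes overlapped at both times and the differences did not pass the test (adjusted p = 1 and 0.149). At 72 h it had 12.7, 20.8 and 18.5 FPKM in lrx345 libraries and 16.3, 11.9 and 8.89 FPKM in WT libraries, which overlapped. The level in lrx345 was 1.41-fold that in WT (log2 0.49 ± 0.21, adjusted p = 0.0475), at the edge of the threshold: DESeq2 gave an adjusted p of 0.0509, upper-quartile scaling 0.112 and a fit of only the groups compared 0.104, and it was 0.234 without replicate 2 of lrx345 at 72 h and 0.237 without replicate 3 of WT at 72 h. It was also lost without replicate 2 of WT (0.0955) or replicate 3 of lrx345 (0.116) at 72 h and, by a narrow margin, without 8 libraries of other times (0.0503 to 0.0552). At 24 h it had 7.92, 10.5 and 6.88 FPKM in lrx345 and 9.91, 7.83 and 9.18 FPKM in WT. It fell between 6 h and 24 h by 0.63 on the log2 scale in lrx345 seedlings (adjusted p = 0.0409; 0.0616 with a mean count of at least 20 asked for, 0.177 and 0.108 without replicate 2 or 3 of lrx345 at 6 h, 0.112 and 0.145 without replicate 1 or 3 of lrx345 at 24 h, and 0.0536 to 0.0651 without replicate 2 of lrx345 at 0 h, replicate 1 of WT at 6 h or replicate 2 of WT at 72 h) and by 0.96 in WT seedlings (adjusted p = 0.00135), and rose by 1.04 between 24 h and 72 h in lrx345 seedlings (adjusted p = 8.56e-04). In lrx345 seedlings at 24 h against 0 h it was 1.58-fold lower (adjusted p = 0.0377; 0.0584 with a mean count of at least 20 asked for, 0.0788 and 0.166 without replicate 1 or 2 of lrx345 at 0 h, 0.094 and 0.124 without replicate 1 or 3 of lrx345 at 24 h, and 0.0558 without replicate 2 of WT at 72 h). All 7 neighbouring pairs in the order of its group means overlapped.

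**Figure D3:**
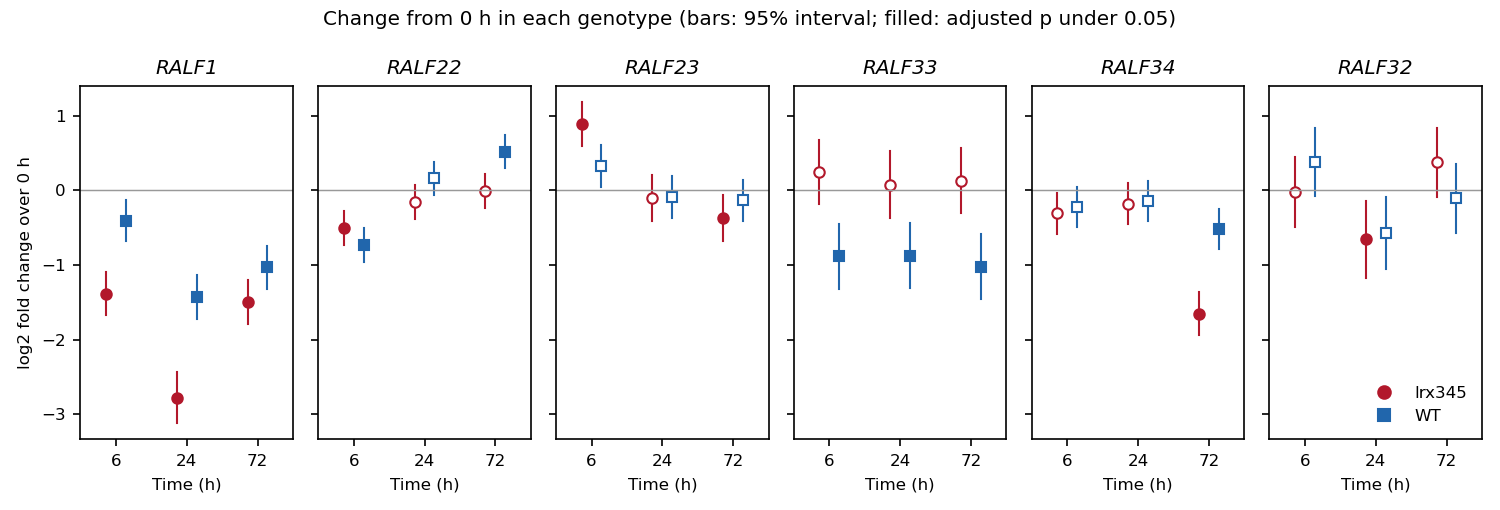
log2 fold change over 0 h at 6, 24 and 72 h for 6 RALF genes in lrx345 (circles, left) and WT (squares, right), with 95% intervals. Filled points passed an adjusted p of 0.05; for RALF33 the WT points are filled and those of lrx345 are open at all 3 times, and for RALF1 all 6 points are filled and below 0.

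Counted against 0 h, 3 of the 6 genes tested changed in lrx345 at 6 h (RALF23 higher, RALF1 and RALF22 lower), 2 at 24 h (RALF1 and RALF32 lower) and 3 at 72 h (RALF1, RALF23 and RALF34 lower), where 47%, 53.9% and 67.3% of all genes tested were called. In WT, 3 changed at 6 h (RALF1, RALF22 and RALF33, all lower), 2 at 24 h (RALF1 and RALF33 lower) and 4 at 72 h (RALF1, RALF33 and RALF34 lower, RALF22 higher), against a background of 40%, 31.5% and 47.8%. Between 6 h and 24 h, 4 genes changed in lrx345 (background 42.2%) and 4 in WT (38.6%); between 24 h and 72 h, 3 changed in lrx345 (51.6%) and 3 in WT (40.3%). The comparisons with 0 h of a genotype share the same 2 libraries of 0 h.

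Whether the change from 0 h differed between the genotypes was tested as an interaction contrast, in which a positive value means a change in lrx345 above that in WT. RALF1 (log2 −0.98 ± 0.21, adjusted p = 0.00289) and RALF33 (log2 1.13 ± 0.31, adjusted p = 0.0244) passed at 6 h, 2 of 6 genes against a background of 8.64%. The same pair of genes passed at 24 h, against 17.8%, with RALF1 at −1.35 ± 0.24 (adjusted p = 2.96e-04) and RALF33 at 0.95 ± 0.32 (adjusted p = 0.0422). At 72 h, against 32.2%, RALF22 (log2 −0.52 ± 0.16, adjusted p = 0.0137), RALF34 (log2 −1.14 ± 0.20, adjusted p = 1.46e-04) and RALF33 (log2 1.15 ± 0.32, adjusted p = 0.0071) passed. The call on RALF33 at 6 h was lost without either WT library of 0 h, replicate 1 of lrx345 at 0 h, or replicate 2 or 3 of either genotype at 6 h, where the log2 value lay between 0.99 and 1.14 and the adjusted p reached 0.103. Its call at 24 h was lost without any library of 0 h, replicate 2 of WT at 24 h, or replicate 1 or 2 of lrx345 at 24 h, with an adjusted p of up to 0.149, reached without replicate 1 of lrx345 at 0 h. The call on RALF22 at 72 h was lost without replicate 1 of lrx345 at 0 h (log2 −0.31, adjusted p = 0.194). The change in RALF23 at 6 h had an interaction of 0.56 (95% interval 0.16 to 0.96, adjusted p = 0.0933), which without replicate 1 of lrx345 at 6 h was 0.71 with an adjusted p of 0.00741. That of RALF1 at 72 h was −0.46 (95% interval −0.88 to −0.05, adjusted p = 0.0959; 0.0451 with upper-quartile scaling and 0.0365 without replicate 1 of lrx345 at 6 h).

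**Figure D4:**
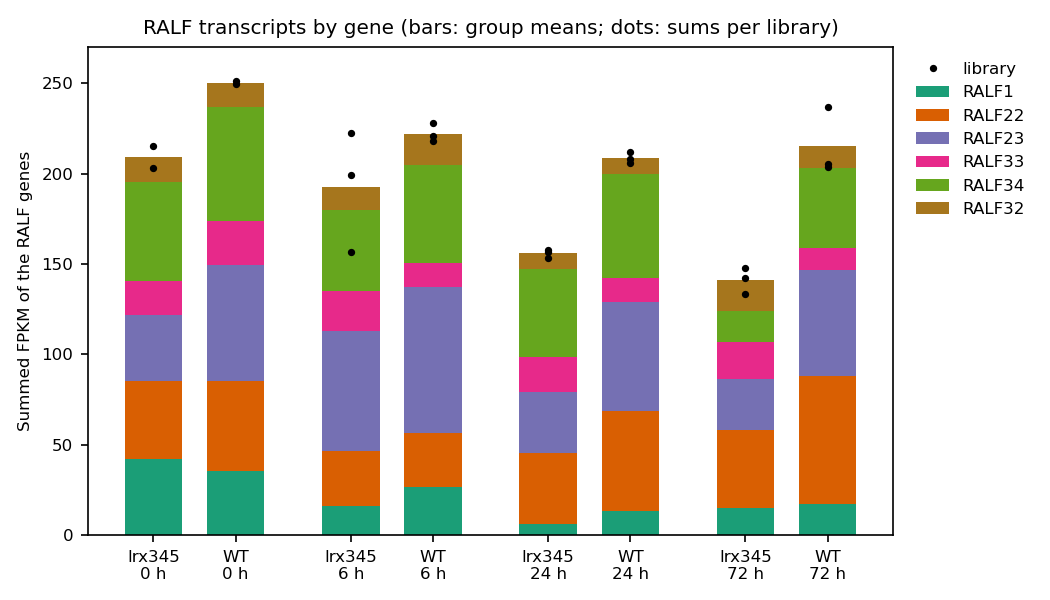
Summed FPKM of the RALF genes by group, stacked by gene (bars, group means) with 1 dot per library for the sum, lrx345 left of WT at 0, 6, 24 and 72 h. The mean sum is 141.2 FPKM in lrx345 and 215.2 FPKM in WT at 72 h, and the segment of RALF1 is shortest at 24 h in lrx345.

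Members did not move as 1 group across the 22 libraries. Pearson correlations of log2 CPM between pairs of the 6 genes ran from −0.36 (RALF22 and RALF33) to 0.61 (RALF23 and RALF34), given as a description over libraries that share their groups. The most alike peptides, RALF23 and RALF33, had −0.33. Among 16833 genes with a mean count of at least 50, those most like RALF1 were BAT1, an acyltransferase of brassinosteroid metabolism (r = 0.95), PGK, a phosphoglycerate kinase (0.92), and AL2 (0.90). Those most like RALF23 were AT4G04340, which encodes the osmosensing calcium channel OSCA1 (0.93), XTH32, a xyloglucan endotransglucosylase/hydrolase (0.93), and AT5G12950 (0.93). RALF34 was most like XCP1, a protease of xylem cells (0.96), emb1513 (0.95) and AT3G52900 (0.95). RALF22 was most like AT1G09390 (0.92), RPT2, of phototropism (0.90), and AT1G36050 (0.89). RALF33 was nearest to TI2, a trypsin inhibitor (0.76), CLT2 (0.75) and BPS1 (0.73), and RALF32 was nearest to AAE17 (0.83), AT2G26230 (0.83) and AT5G04750 (0.80).

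Promoters, taken as the 300 bases before the RefSeq gene start, were searched on both strands for short motifs. ACGTG, the core of the abscisic acid response element, was in 25.6% of 27443 promoters of that length. CACGTG, the G-box, which contains the first motif, was in 7.09%. TTGAC, the core of the W-box, was in 50.4%. CGTGTG, a brassinosteroid response element that can overlap the first motif, was in 6.11%. RALF22, RALF23, RALF34 and RALF4 held none of these. RALF32 held ACGTG once and TTGAC once, and RALF1 held TTGAC once. The promoter of RALF33, the gene that was higher in lrx345 at 3 times, held TTGAC at 2 places, both on the other strand, and is shown with them in capitals (chr4:8984487-8984786, plus strand, TAIR10.1).
RALF33: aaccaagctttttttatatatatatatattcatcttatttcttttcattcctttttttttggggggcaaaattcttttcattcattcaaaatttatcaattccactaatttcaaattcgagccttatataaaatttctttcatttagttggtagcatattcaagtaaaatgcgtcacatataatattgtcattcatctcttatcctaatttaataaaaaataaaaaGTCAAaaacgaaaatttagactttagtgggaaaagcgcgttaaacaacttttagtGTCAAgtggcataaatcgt
A match is a description of the letters in this window and not a binding site.

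Genes that work with the peptides were described from lists drawn up for the pathway. Counts are over whole lists, and genes that the annotation does not name are given by identifier or only counted. Calls on these genes were not checked under the alternative settings. Upper-quartile factors moved the median of all genes for lrx345 against WT by −0.01, −0.02, −0.09 and −0.10 on the log2 scale at 0, 6, 24 and 72 h. FER, the receptor of several RALF peptides, was 1.18-fold higher in lrx345 at 6 h (adjusted p = 0.0169) and 1.15-fold higher at 24 h (adjusted p = 0.0285), and its log2 differences of −0.22 at 0 h and 0.09 at 72 h did not pass the test. THE1, a receptor of RALF34, was 1.43-fold lower in lrx345 at 0 h (adjusted p = 0.00263), 1.62-fold higher at 6 h (adjusted p = 6.91e-06) and 1.64-fold lower at 72 h (adjusted p = 1.26e-06). ERULUS (ERU), a receptor kinase of root hairs, was 7.73-fold lower in lrx345 at 6 h (adjusted p = 2.74e-06) and 13.1-fold lower at 24 h (adjusted p = 2.35e-08), next to root markers that were also lower. It held only 1 to 8 counts per library in lrx345 at 6 h and 3 to 5 at 24 h, so the size of these folds is imprecise. At 72 h ERU had a mean of 1.18 FPKM in lrx345 and 5.01 FPKM in WT. Of the 9 receptor genes tested of 10 listed, 0, 2, 3 and 3 were higher in lrx345 and 2, 1, 2 and 3 lower at 0, 6, 24 and 72 h, where 18%, 36%, 52.7% and 62.1% of all genes tested were called in either direction. The 3 that were higher at 72 h are among those the annotation does not name, and the 6 tested genes that it names had 0 higher and 3 lower.

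Of the 3 co-receptor genes tested of 4 listed, 0, 0, 0 and 1 were higher in lrx345 and 0, 1, 1 and 0 lower at 0, 6, 24 and 72 h. Of 7 listed genes of RALF processing and signalling, all tested, 1, 1, 1 and 3 were higher and 1, 4, 5 and 4 lower, beside the same background of 18%, 36%, 52.7% and 62.1%. LLG1 did not pass the test at any time, with log2 differences between −0.31 and 0.17, so the calls on co-receptors fell on genes with few counts. LLG2 held 2 to 3 counts per library in lrx345 at 24 h, and LLG3 held 1 to 4 in WT at 72 h. RIPK, a kinase that acts with FER in response to RALF1, was higher in lrx345 at all 4 times, by 1.55-fold at 0 h (adjusted p = 0.0033), 2.28-fold at 6 h (adjusted p = 2.89e-08), 2.90-fold at 24 h (adjusted p = 2.01e-10) and 2.42-fold at 72 h (adjusted p = 2.58e-09). S1P, the protease that cuts RALF precursors, was lower in lrx345 at 6, 24 and 72 h by between 1.17-fold and 1.27-fold. LRX1, the extensin of root hairs, was 3.69-fold, 15.4-fold and 2.59-fold lower in lrx345 at 6, 24 and 72 h. AHA2, a proton pump of the plasma membrane that RALF1 is known to inhibit through FER, was 1.33-fold, 1.38-fold and 1.80-fold lower in lrx345 at 0, 6 and 24 h and 1.24-fold higher at 72 h (adjusted p = 0.00803). LRX2, a close relative of LRX1, was higher in lrx345 at 6 h (log2 1.81, adjusted p = 1.79e-08) and 1.53-fold and 2.46-fold lower at 24 and 72 h.

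Of 27 further genes that the annotation names as RALF, 19 had no count in any library and 3 passed the filter. RALF24 was lower in lrx345 at 6, 24 and 72 h (log2 −1.49, −0.73 and −1.74), with 1.5 ± 0.394 FPKM in lrx345 and 5.08 ± 0.15 FPKM in WT at 72 h (SD, n = 3). RALF27 held at most 1 count per library in lrx345 at 24 and 72 h, under the floor of 3 counts taken here, and 8 to 15 counts in WT. RALF31 did not pass the test between genotypes at any time, and its group means, between 10.4 and 14.8 FPKM, lay within the range of those of RALF32.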

How the data were processed

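RNA was extracted with Trizol from whole seedlings, and 22 Illumina libraries were sequenced. The authors aligned reads to TAIR10 with TopHat2 (version not given in the sources used here) and deposited whole-number counts per gene, made with featureCounts 1.4.6 per the file header: fragments over exons, no strand, and fragments mapping to several places or genes left out. Total counts per library were 7413461 to 15047080 (median 11799160.5), which limits genes with few counts most. Replicate pairs differed by more than sampling noise (chi-square per degree of freedom 2.46 to 14.5, 20 pairs). One WT column at 0 h carries a number that no label has, and was used as a WT library of 0 h with no number.

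Counts were tested with edgeR 4.0.16 in R 4.3.3 (quasi-likelihood test, TMM factors, filterByExpr, 1 mean per group, all 22 libraries in 1 fit), and p-values were adjusted by Benjamini-Hochberg over 21831 genes. A gene was called at an adjusted p under 0.05. Standard errors are approximate (the log2 fold change over the root of F). FPKM were computed from the counts, the deposited exon lengths and TMM-scaled totals. The study's own test, cuffdiff, needs the reads and was not run.

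Named genes were the 7 RALF genes, pathway genes of fixed lists, other RALF genes of the annotation, and for each RALF gene the 3 genes with the highest Pearson correlation of log2 CPM among those with a mean count of at least 50. The members and lists were chosen with earlier results of these data known. Of the 33602 identifiers, 32835 were in the RefSeq table of TAIR10.1, and genes without a symbol or synonym there are given by identifier or not named. Of 154279 exons of the count table, 97.61% share a start or an end with RefSeq, and none lies past a chromosome end. The primers were matched exactly, on both strands, to the RefSeq genome. Alternatives were upper-quartile factors, other filters, a replicate block, a fit of only the groups compared, DESeq2 1.42.0, a fold change above 2 and leaving out each library. They were read for the 6 RALF genes tested and for no other gene. The test was also run on simulated counts in which few genes changed, all in a single group, and every gene had the same spread. That setting is simpler than these data, where many genes were called in every comparison.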

Additional observations from a re-analysis of the deposited data

Results flagged for a closer look

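For 7 results the change from 0 h differed between the genotypes by the interaction contrast of edgeR's quasi-likelihood test (Benjamini-Hochberg adjustment), in which a negative value means a change in lrx345 below that in WT. For RALF1 the log2 difference of changes was −0.98 at 6 h and −1.35 at 24 h. For RALF33 the 3 times gave 1.13 (6 h), 0.95 (24 h) and 1.15 (72 h). For RALF22 and RALF34 it was −0.52 and −1.14 at 72 h. The 3 contrasts share the libraries of 0 h, 2 in each genotype. Groups of 2 and 3 libraries were not tested for single libraries that stand apart.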

How the results depend on the processing

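Over 102 results on single RALF genes and 29 alternatives, 2833 of 2958 values kept their side of the threshold, of which 55, all without a call, changed sign. Of the others, 105 lost a call, 20 gained one and 0 called values changed sign. Upper-quartile factors gave 1 RALF gene called for the interaction at 24 h. They moved the median of all genes by −0.10 and −0.14 on the log2 scale for lrx345 at 24 and 72 h against 0 h, and the share of higher calls in the interaction at 24 h was 42.7% with them and 53.6% with TMM. A mean count of at least 20 gave 1 gene for lrx345 at 24 h against 0 h, and the fit of only the groups compared gave 5 for WT at 6 h against 0 h. A fold change above 2 in addition gave 0, 0, 1 and 2 genes for lrx345 against WT at 0, 6, 24 and 72 h, and against 0 h it gave 1 and 1 for lrx345 at 6 and 24 h and 0, 1 and 2 for WT at 6, 24 and 72 h. It gave 1 for lrx345 and 1 for WT at 24 h against 6 h, 0 for WT at 72 h against 24 h, and 1 each for the interactions at 6 and 24 h. The share of all genes that met this added condition was not computed. The causes were not tested.

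With 1 library left out, the number of RALF genes called ran from 1 to 3 for WT at 72 h against 24 h, from 1 to 2 for lrx345 at 24 h against 0 h, from 2 to 4 for lrx345 at 24 h against 6 h, from 1 to 3 for the interaction at 6 h and from 1 to 2 for that at 24 h. The number of RALF genes called also moved in other comparisons. Among them were lrx345 against WT at 6, 24 and 72 h, each genotype at 6 h against 0 h, and the interaction at 72 h. Replicate numbers gave little sign of pairing over all libraries: deviations of same-numbered libraries correlated with a median of 0.01 (range −0.24 to 0.19, 57 pairs). Those of libraries with different numbers had a median of −0.003 (range −0.14 to 0.18, 114 pairs). Between the genotypes, same-numbered libraries gave 0.09, 0.06 and 0.08 at 6 h and −0.12, 0.04 and −0.10 at 72 h, so that pairing at single times is not excluded. The replicate block was fitted without the WT library of 0 h that has no number, which left 1 WT library at 0 h. With it, calls were lost for RALF1 in WT at 6 h against 0 h and at 72 h against 24 h. Calls were also lost for RALF32 between genotypes at 72 h and in lrx345 at 24 h against 0 h. The interaction of RALF33 lost its calls at 6 h and 24 h. In these losses the block and the library left out cannot be told apart. Ranked by Spearman correlation, 1 of the 3 genes most like RALF1, RALF22, RALF23 and RALF32 was shared with the Pearson ranking, and 0 for RALF33 and RALF34. Depth limits RALF32, RALF33 and RALF1 most, with as few as 27, 52 and 26 counts in a library.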
